A study of Homo sapiens with 6 samples.

Results

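The genes described here are 10 AP-1 and immediate early factors, FOS, FOSB, FOSL1, FOSL2, JUN, JUNB, JUND, ATF3, EGR1 and IER3, out of 27394 gene names in a table of RNA-seq counts. They were taken by name, with 1 entry per name, and all 10 had enough reads to be tested. The libraries came from Huh7, a human hepatocellular carcinoma line grown in DMEM with serum. In 3 libraries the cells carried a control short hairpin RNA (shRNA) and are labelled as wild type, and in 3 they carried an shRNA against CTSV, labelled as a CTSV knockdown. CTSV is the gene of the lysosomal protease cathepsin V, and the stated question is what it does in liver cancer. The number of hairpins and clones is not stated. Nothing says that replicates were separate cultures, so each p-value is against a spread among 3 libraries a group that may be technical.

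AP-1 is a family of dimeric transcription factors that bind DNA through a basic leucine zipper. FOS proteins do not form stable dimers with each other and pair mainly with JUN proteins, while JUN proteins can also pair among themselves, and both can pair with some ATF and MAF proteins. FOS, JUN, EGR1 and IER3 are immediate early genes, transcribed within minutes of a growth factor or stress signal without new protein synthesis, and their short-lived mRNAs are soon degraded. In liver, AP-1 is known for its part in regeneration, the response to injury and tumour growth.

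The knockdown libraries held less mRNA of 6 of the 10 genes, FOS, JUN, JUNB, JUND, ATF3 and IER3, and none of the 10 passed the test in the other direction. FOS was the most reduced, to 43.4% of the control level, and JUND the least among the 6, to 84.9%. EGR1 and FOSL2 had positive log2 fold changes that did not pass, and FOSB and FOSL1 negative ones that did not pass. Of all 15968 genes tested, 21.6% were called lower and 18.7% higher at an adjusted p under 0.05 (quasi-likelihood F-test in edgeR, Benjamini-Hochberg adjusted). Among protein-coding genes 26.2% were called lower and 18.7% higher. Among the 10109 tested genes whose mean level lay within the range of the 10, 20.8% were called lower and 21.0% higher. Only FOS was called at least 2-fold lower, as were 0.958% of all genes tested, and 4.23% were called at least 2-fold higher. The median log2 fold change, CTSV shRNA over control shRNA, was -0.75 over the 10 genes and 0.02 over all genes tested. At an unadjusted p under 0.05, 7 of the 10 were lower and 1 higher in edgeR. No share of all genes is given for the unadjusted p, so those counts have no background to be read against. DESeq2 called 6 of the 10 lower and 0 higher at an adjusted p under 0.05. Its counts over all genes, lower and higher, were each below those of edgeR and within 1.5 times of them, with more genes lower than higher. The number of genes DESeq2 tested is not given, so no share of all genes is set beside its count for the 10. In bulk RNA, fewer cells that express a gene and less RNA per cell cannot be told apart.

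Library totals lay between 16258803 and 18106207 counts. CTSV itself was at 42.3, 44.5 and 41.0 CPM (counts scaled to a common library size, with TMM factors) in controls and at 18.4, 16 and 16.3 CPM in knockdown libraries, a log2 fold change of -1.34 (SE 0.0958). Hepatocyte markers were present as the label says, with a summed level of 34271 to 35019 CPM in controls and 41912 to 42991 CPM in knockdown libraries over 10 genes. Of 10 such markers 7 rose and 1 fell, against 18.7% and 21.6% of all genes tested. Of 14 markers of immune, endothelial, stromal and red cells, 6 have a name in the table and the others were not analysed here. Their summed level was 22.8 to 28.5 CPM in controls and 24.6 to 26.5 CPM in knockdown libraries, most of it from PECAM1, the T cell marker CD3E was at 0.12 CPM on average, and 0 of the 4 that could be tested were called.

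Promoter windows of 300 bases, 250 before and 50 after the transcription start, were found in RefSeq on GRCh38.p14 for 8 of the 10 genes, all but FOSL1 and IER3. ATF3 has 2 such windows. The windows of 4 genes that fell and of the 2 genes with positive fold changes are shown because most of the motif matches described next lie in them. Letters run 5′ to 3′ along the gene, and capitals mark matches to 6 motifs searched on both strands: the AP-1 site TGACTCA, the cyclic AMP response element (CRE) TGACGTCA, the site TGACATCA known from the JUN promoter, the EGR site GCGNGGGCG, the TATA box TATAAA and the CArG box bound by serum response factor.
FOS (chr14:75278578-75278877, plus strand): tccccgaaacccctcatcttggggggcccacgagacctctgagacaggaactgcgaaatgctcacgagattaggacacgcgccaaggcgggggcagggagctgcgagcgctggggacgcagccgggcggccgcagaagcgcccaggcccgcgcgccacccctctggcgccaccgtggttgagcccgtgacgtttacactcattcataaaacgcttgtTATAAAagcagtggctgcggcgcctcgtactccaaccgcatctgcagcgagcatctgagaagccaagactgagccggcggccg
JUN (chr1:58783998-58784297, minus strand): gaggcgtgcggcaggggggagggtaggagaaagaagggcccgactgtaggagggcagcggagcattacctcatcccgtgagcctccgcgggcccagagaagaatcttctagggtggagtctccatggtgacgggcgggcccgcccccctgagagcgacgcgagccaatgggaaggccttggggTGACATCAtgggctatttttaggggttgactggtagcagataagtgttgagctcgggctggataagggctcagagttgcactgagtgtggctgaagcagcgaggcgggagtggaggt
JUNB (chr19:12791236-12791535, plus strand): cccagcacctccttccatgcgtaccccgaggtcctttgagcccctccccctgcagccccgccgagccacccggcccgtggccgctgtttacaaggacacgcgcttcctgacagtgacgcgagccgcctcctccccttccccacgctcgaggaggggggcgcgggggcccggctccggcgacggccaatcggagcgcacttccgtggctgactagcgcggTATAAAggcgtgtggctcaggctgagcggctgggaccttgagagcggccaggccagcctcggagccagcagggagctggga
ATF3 (chr1:212565157-212565456, plus strand): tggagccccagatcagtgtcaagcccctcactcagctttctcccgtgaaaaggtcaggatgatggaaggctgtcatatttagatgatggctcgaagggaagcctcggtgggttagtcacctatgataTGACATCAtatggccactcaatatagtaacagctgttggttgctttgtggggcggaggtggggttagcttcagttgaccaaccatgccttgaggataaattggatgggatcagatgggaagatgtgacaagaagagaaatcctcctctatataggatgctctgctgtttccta
EGR1 (chr5:138465229-138465528, plus strand): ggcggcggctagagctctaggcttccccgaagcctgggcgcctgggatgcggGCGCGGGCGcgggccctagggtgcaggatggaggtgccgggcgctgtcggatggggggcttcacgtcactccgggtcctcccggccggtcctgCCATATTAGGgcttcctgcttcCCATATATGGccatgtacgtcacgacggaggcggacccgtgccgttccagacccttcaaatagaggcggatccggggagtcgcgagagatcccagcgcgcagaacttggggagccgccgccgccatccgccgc
FOSL2 (chr2:28392608-28392907, plus strand): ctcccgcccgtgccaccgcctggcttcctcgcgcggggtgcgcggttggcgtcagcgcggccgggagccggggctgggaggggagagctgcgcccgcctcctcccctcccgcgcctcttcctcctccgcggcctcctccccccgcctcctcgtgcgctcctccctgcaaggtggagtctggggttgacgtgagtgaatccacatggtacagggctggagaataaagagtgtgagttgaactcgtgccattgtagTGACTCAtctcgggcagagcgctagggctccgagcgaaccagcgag
The motifs did not overlap each other in these windows. JUN and the upstream start of ATF3 shared the match TGACATCA, at positions -67 and -123 from the start, a motif that 2.6% of 34796 distinct promoter windows hold. EGR1 held 2 CArG boxes, CCATATTAGG at -105 and CCATATATGG at -83, and a match to the EGR pattern at -198. That match is GCGCGGGCG, with C at the position N, where the search took any base. A CArG box is found in 1.3% of all windows and a match to this loose EGR pattern in 9.43%. FOSL2 held the AP-1 site itself, TGACTCA, just after its start at position 5, as 4.96% of windows do. FOS, FOSB and JUNB had a TATA box between -33 and -30, where 11.6% of windows have one anywhere. JUND held a CRE at -200 (1.84% of windows). These matches are letters in a window and do not show that a factor was bound. Sites beyond the windows were not searched, so a gene without a match here may have one further away.

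**Figure D1:**
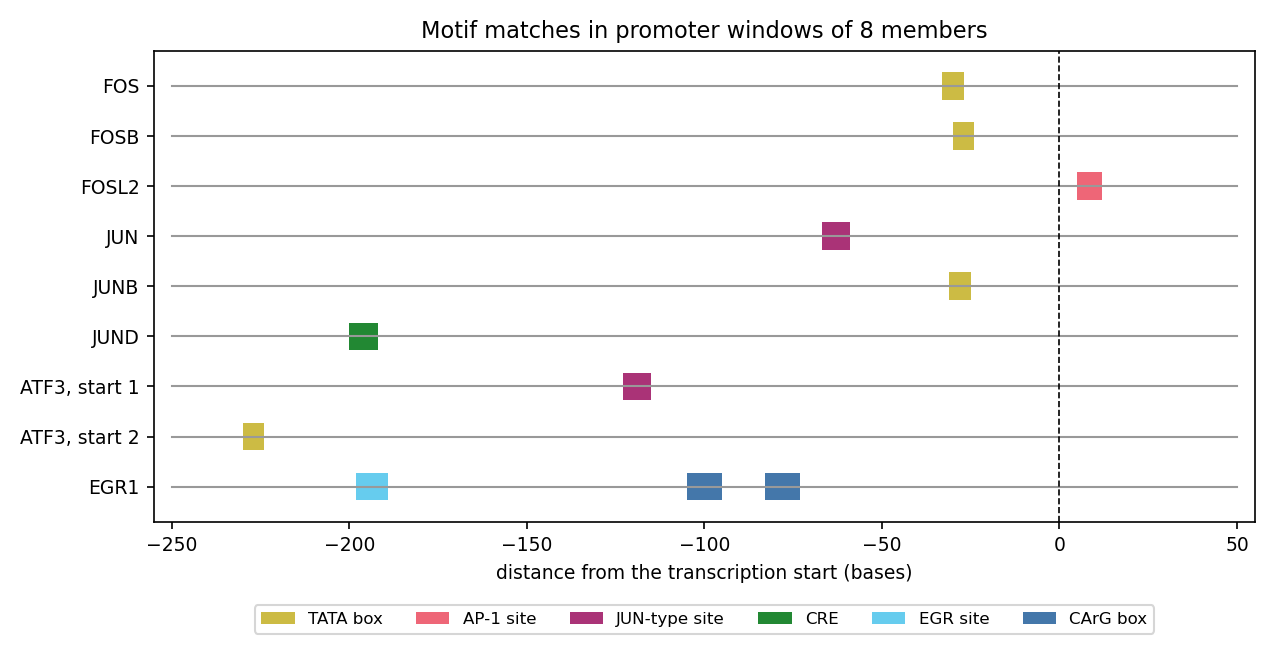
Motif matches in the promoter windows of 8 members, plotted by distance in bases from the transcription start (dashed line); each row is a window and each coloured block a match. JUN and the first start of ATF3 carry the same JUN-type site, and EGR1 has 2 CArG boxes, at -105 and -83.

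The FOS family supplies the partners that JUN proteins need for their most stable dimers. FOS (ENSG00000170345, chromosome 14, 75278774 to 75282230 on hg38, plus strand) was at 8.47, 6.50 and 6.29 CPM in the 3 control libraries and at 3.27, 3.64 and 2.37 CPM in the 3 knockdown libraries. The groups did not overlap, and the highest knockdown library was well under the lowest control. Mean levels were 7.09 ± 1.20 and 3.09 ± 0.653 CPM (SD, n = 3 each), and the log2 fold change was -1.20 with an SE of 0.222 (edgeR, adjusted p = 3.27e-05). Non-overlapping groups with the knockdown lower were found for 6 of the 10 genes, and for 25% of all genes tested. Groups apart with the knockdown higher were found for 0 of the 10 and for 24.1% of all genes.

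FOSL1 (chromosome 11, 65892049 to 65900573, minus strand) encodes FRA1, a FOS relative without the strong activation domain of FOS, known for invasive tumour cells. Its levels were 3.03, 2.83 and 1.68 CPM in controls and 0.786, 1.03 and 2.09 CPM in knockdown libraries. Knockdown replicate 3 lay above control replicate 3, so the groups overlapped. The log2 fold change was -0.94 (SE 0.391, adjusted p = 0.0536, edgeR), and without knockdown replicate 3 it was -1.46 and passed (adjusted p = 0.00904, edgeR). It also passed without control replicate 3 (adjusted p = 0.0235, edgeR), when no low-count filter was used (0.0364) and with genes kept from a mean of 1 CPM (0.0485). These values rest on 13 to 54 reads per library.

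FOSB (chromosome 19, 45467995 to 45475179, plus strand), a close FOS relative that is induced later and lasts longer, had the lowest level per length of the 10. It was at 2.75, 2.89 and 2.18 CPM in controls and 2.60, 1.33 and 1.1 CPM in knockdown libraries. Knockdown replicate 1 lay within the control range. The log2 fold change was -0.64 (SE 0.357, adjusted p = 0.156, edgeR), and without that library it was -1.1 with an adjusted p of 0.0292 (edgeR). FOSB lies inside the span the table gives for ERCC1 on the opposite strand, a DNA repair gene that fell by 0.87 on the log2 scale. The 2 genes share 0 exon bases in GENCODE v29, but strand use in counting is not stated, so the FOSB value is uncertain.

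FOSL2 (chromosome 2, 28392448 to 28417312, plus strand), which encodes FRA2, was at 13.7, 12.8 and 12.7 CPM in controls and 11.4, 15.8 and 14.9 CPM in knockdown libraries. The control values lay between the lowest and the highest knockdown values. The log2 fold change was 0.10 (SE 0.134, adjusted p = 0.568, edgeR), and over 12 alternative settings it ranged from 0.01 to 0.23 without a call.

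**Figure D2:**
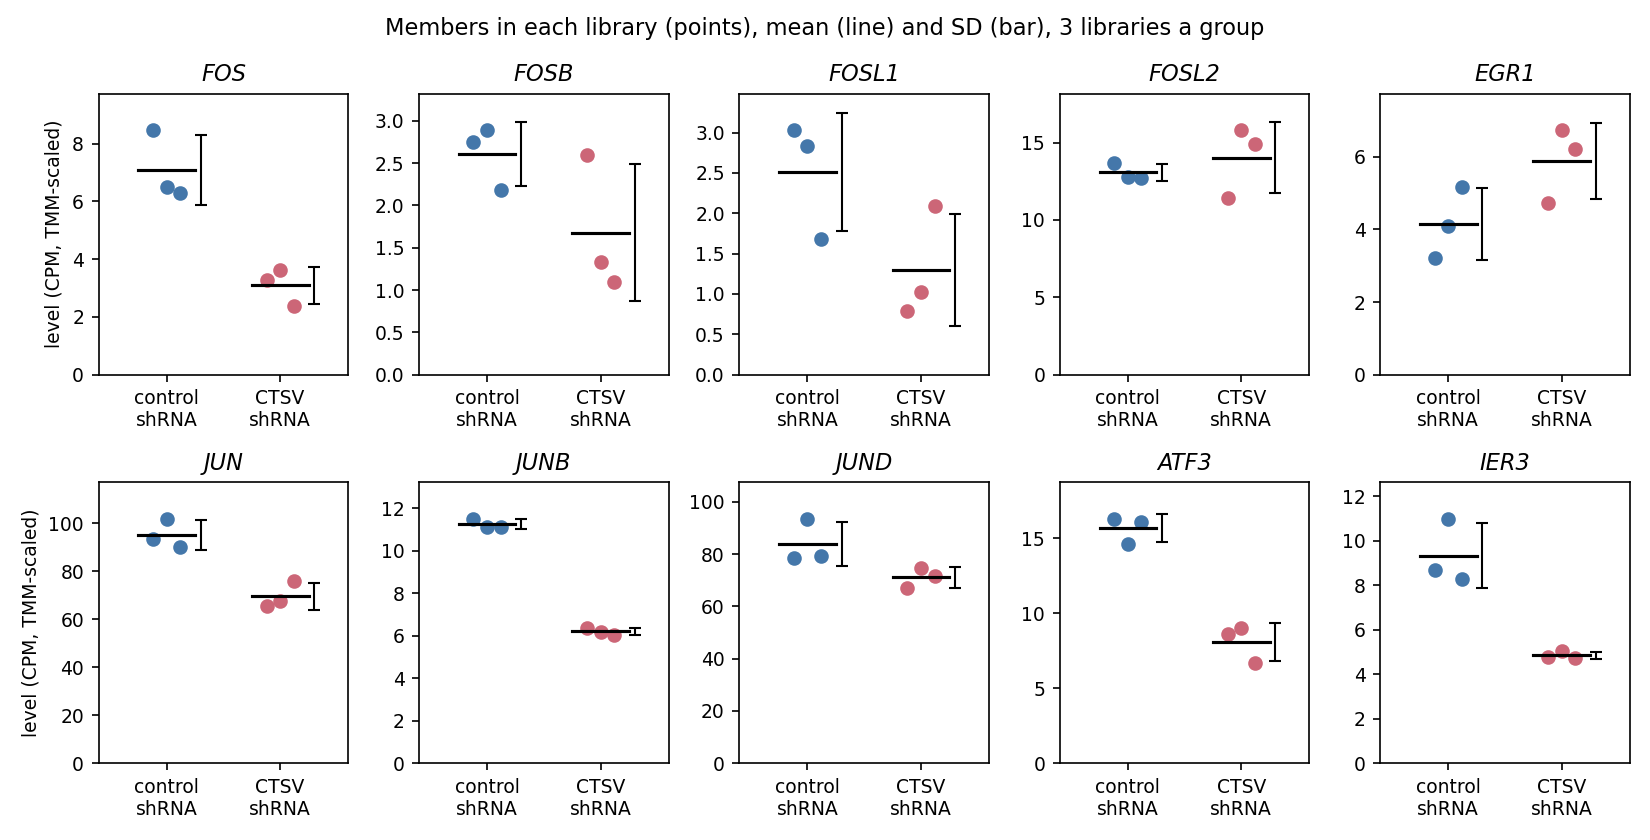
Level of each of the 10 members in CPM (vertical axis, from 0) in the 3 control and 3 CTSV shRNA libraries; points are libraries, lines are means and bars the SD. The groups are apart for FOS, JUN, JUNB, JUND, ATF3 and IER3 and overlap for FOSB, FOSL1, FOSL2 and EGR1.

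All 3 JUN family genes fell, by amounts that ran from 15.1% to 44.8%. JUN (ENSG00000177606, chromosome 1, 58780788 to 58784327, minus strand, 1 exon) encodes the strongest activator of the family. It was at 93.4, 102 and 90.1 CPM in controls and 65.4, 67.5 and 75.9 CPM in knockdown libraries, with no overlap. Mean levels were 95.1 ± 5.98 and 69.6 ± 5.52 CPM (SD, n = 3 each). JUN had a log2 fold change of -0.45 (SE 0.066, adjusted p = 8.56e-07, edgeR).

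JUNB (ENSG00000171223, chromosome 19, 12791496 to 12793315, plus strand, 1 exon), a weaker activator that can oppose JUN, had the tightest values of the 10 in controls. Its levels were 11.5, 11.1 and 11.1 CPM there and 6.35, 6.18 and 6.05 CPM in knockdown libraries. The groups were far apart relative to their spread, with a log2 fold change of -0.86 (SE 0.157, adjusted p = 3.05e-05, edgeR). JUNB shares 259 exon bases with HOOK2, which runs on the opposite strand and rose by 0.53 on the log2 scale. HOOK2 did not pass without control replicate 2 (0.36, adjusted p = 0.0853, edgeR) or without knockdown replicate 2 (0.37, adjusted p = 0.128, edgeR). Since strand use in counting is not stated, reads in those bases cannot be told apart.

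JUND (ENSG00000130522, chromosome 19, 18279760 to 18281622, minus strand), the family member that resting cells make steadily, was at 78.5, 93.6 and 79.4 CPM in controls and 67.0, 74.9 and 71.6 CPM in knockdown libraries. The groups did not overlap, but the lowest control and the highest knockdown library were close. The log2 fold change was -0.24 (SE 0.0689, adjusted p = 0.00574, edgeR). Without control replicate 2, the highest of the 6 libraries, it was -0.15 and did not pass (adjusted p = 0.0803, edgeR). It was also lost when each library's trend with transcript length and GC content was removed (log2 fold change -0.10, adjusted p = 0.167, edgeR with length and GC offsets). JUND is the most GC-rich of the 10 at 69.7%, where the median over all genes tested is 47.3%.

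ATF3 and IER3, both known as stress-induced genes, were close to 50% lower. ATF3 (ENSG00000162772, chromosome 1, 212565334 to 212620777, plus strand) encodes a zipper protein that can pair with JUN and that represses many of its targets as a homodimer. It was at 16.3, 14.6 and 16.1 CPM in controls and 8.59, 9.03 and 6.66 CPM in knockdown libraries, with a wide gap between the groups. Mean levels were 15.7 ± 0.915 and 8.09 ± 1.26 CPM (SD, n = 3 each), and the log2 fold change was -0.96 with an SE of 0.143 (edgeR, adjusted p = 1.15e-06). The table gives 1 count for the whole gene, so its 2 starts were not told apart.

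IER3 (ENSG00000137331, chromosome 6, 30743199 to 30744554, minus strand) encodes a small protein that modulates ERK signalling and cell survival. It was at 8.69, 11 and 8.29 CPM in controls and at 4.78, 5.03 and 4.73 CPM in knockdown libraries. The knockdown libraries lay close together and all were under the controls. The log2 fold change was -0.94 (SE 0.18, adjusted p = 5.58e-05, edgeR). Its opposite-strand neighbour IER3-AS1 shares 359 exon bases with it and had at most 3 reads in any library.

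EGR1 (ENSG00000120738, chromosome 5, 138465490 to 138469315, plus strand), a zinc finger factor and not an AP-1 protein, had the highest fold change of the 10. It was at 3.20, 4.09 and 5.17 CPM in controls and 4.72, 6.73 and 6.22 CPM in knockdown libraries. Knockdown replicate 1 lay under control replicate 3, so the groups overlapped. The log2 fold change was 0.51 (SE 0.222, adjusted p = 0.0651, edgeR). It passed without control replicate 3 (0.69, adjusted p = 0.0252), without knockdown replicate 1 (0.64, adjusted p = 0.0281) and with length and GC offsets (0.58, adjusted p = 0.0309), all in edgeR. Over the 12 alternatives it lay between 0.34 and 0.69.

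**Figure D3:**
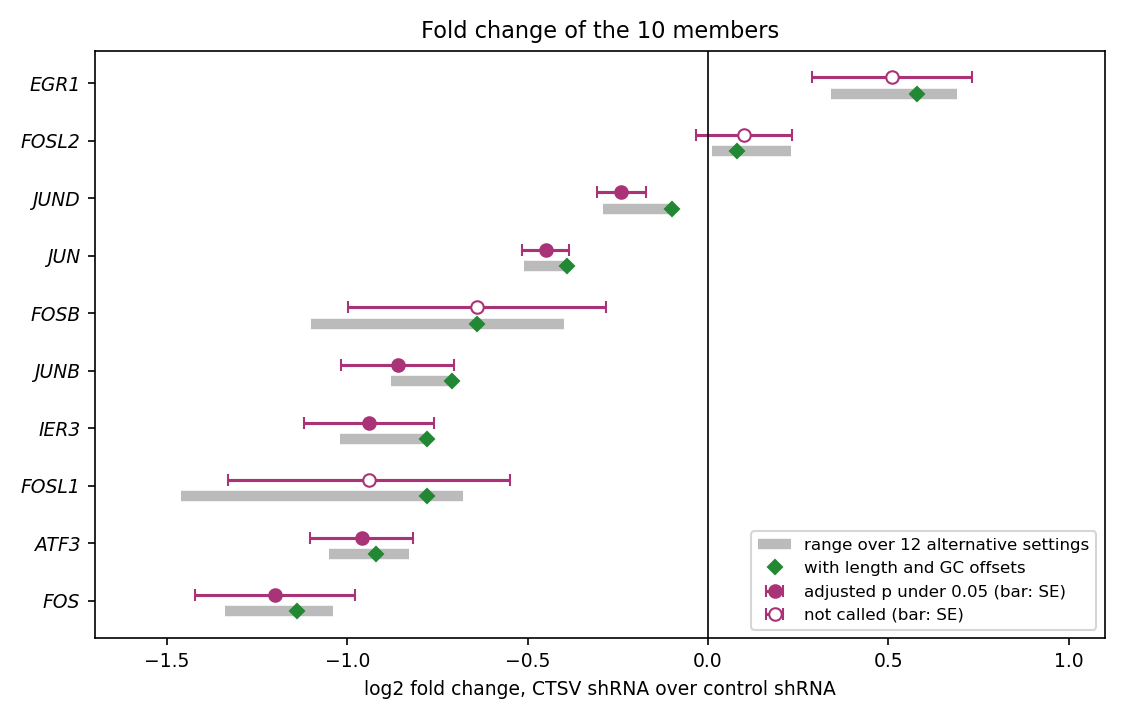
Log2 fold change of the 10 members, CTSV shRNA over control shRNA (horizontal axis), with SE; filled circles passed the edgeR test at an adjusted p under 0.05. Grey bars give the range over 12 alternative settings and green diamonds the value with length and GC offsets, which is nearest to 0 for JUND at -0.10 and FOSL2 at 0.08.

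The fall of FOS, JUN, JUNB, ATF3 and IER3 passed under every one of the 12 alternatives, that of JUND under 10. How many of all genes tested passed under every alternative was not counted, so these counts have no background to be read against. In the authors' deposited table, 6 of the 10 have an adjusted p under 0.05 with a lower knockdown level, and these are the same 6, against 11.6% of all names lower and 8.51% higher in that table. With length and GC offsets, 5 fell and 1 rose, where 23.7% of all genes tested were then lower and 17.5% higher. GC content of the 10 genes ran from 46.7% in ATF3 to 69.7% in JUND with a median of 57.2%, and they have a median exon length of 3188 bases, shorter than the 4416 over all genes tested. The offsets brought the log2 fold changes of the shortest and most GC-rich genes nearer to 0, JUNB to -0.71 and IER3 to -0.78, and moved FOS little, to -1.14.

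Levels can be compared between genes only per length, here as CPM per kilobase of all annotated exons. In controls JUND was highest at 45.0 ± 4.54 and JUN next at 26.9 ± 1.69 CPM per kilobase (SD, n = 3). IER3 at 6.87 ± 1.06 and JUNB at 6.16 ± 0.131 overlapped each other and stood apart from ATF3 at 3.88 ± 0.226. FOS followed at 2.19 ± 0.37 and FOSL2 at 1.82 ± 0.0764, then FOSL1 at 1.33 ± 0.385 and EGR1 at 1.32 ± 0.315, whose libraries overlapped. FOSB came last at 0.469 ± 0.0675 CPM per kilobase. In knockdown libraries the order of the first 5 was the same, while FOSL2 at 1.96 ± 0.32 and EGR1 at 1.88 ± 0.333 CPM per kilobase both stood above FOS at 0.954 ± 0.202. ATF3 at 2.00 ± 0.312 overlapped FOSL2 there.

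The make-up of the FOS family differed between the groups, and that of the JUN family less. Of the FOS family's summed level per kilobase, FOS gave 39.5, 34.6 and 38.8% in controls and 28.9, 27.3 and 17.7% in knockdown libraries. FOSL2 gave 28.9, 30.7 and 35.5% in controls and 45.8, 53.6 and 50.6% in knockdown libraries. So FOS had the largest share in each control library and FOSL2 in each knockdown library, and neither gene's shares overlapped between the groups. That order in controls holds only per kilobase: in plain counts FOSL2 (244, 212 and 204 reads) was above FOS (151, 108 and 101 reads) in each control library too. The shares of FOSL1 and FOSB overlapped. The family's summed level was 5.81 ± 0.811 CPM per kilobase with the control and 3.91 ± 0.36 with the CTSV shRNA (SD, n = 3 each), or 67.2% of the control level.

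JUND gave 57.6% ± 1.39 of the JUN family's level per kilobase with the control shRNA and 62.3% ± 1.69 with the CTSV shRNA (SD, n = 3 each). JUN gave 34.5% ± 0.748 and 32.1% ± 1.75 with overlapping libraries, and JUNB 7.94% ± 0.687 and 5.57% ± 0.402 without overlap. The family's summed level was 78.0 ± 6.10 CPM per kilobase in controls and 61.3 ± 2.90 in knockdown libraries. These shares are given without a test, and annotated exon length overstates the length of genes that use few of their exons.

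**Figure D4:**
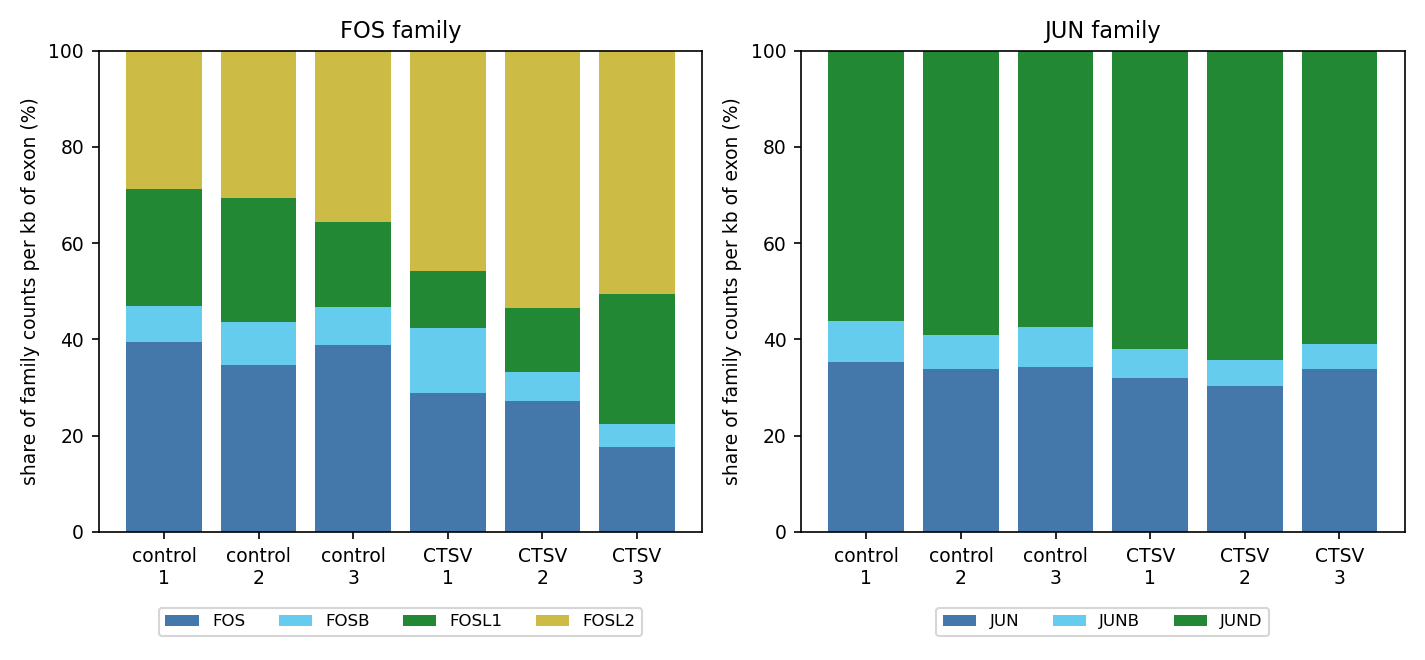
Share of each member in its family's level per kilobase of exon (percent, vertical axis) in the 6 libraries, FOS family on the left and JUN family on the right. FOSL2 takes 45.8 to 53.6% in knockdown libraries against 28.9 to 35.5% in controls, and JUND is the largest part of the JUN family in all 6.

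Among 12 tested bZIP genes whose proteins can pair with FOS or JUN proteins, 8 fell and 2 rose. These were 66.7% and 16.7%, against 21.6% and 18.7% of all genes tested. The median log2 fold change of the 12 was -0.53. This list and those below were chosen with earlier results of these data known. Their shares therefore describe the lists and do not test them. The small MAF genes, which lack an activation domain, all fell: MAFF (-1.1, SE 0.142, adjusted p = 7.84e-08, edgeR), MAFK (-0.65) and MAFG (-0.42). MAFF was at 15.1, 14.6 and 14.8 CPM in controls and 6.90, 7.15 and 6.77 CPM in knockdown libraries. JDP2, a JUN-binding repressor, fell by 0.91 on the log2 scale, CREB5 by 0.64, ATF4 by 0.71 and ATF2, the classical partner of JUN, by 0.24. BATF also fell, from 0.994 ± 0.164 to 0.339 ± 0.291 CPM (SD, n = 3 each), and ATF7 rose by 0.25, both named after their values were seen. BATF kept its call only without knockdown replicate 2, and ATF7 only without control replicate 3 or knockdown replicate 1, of the 6 fits that leave out a library.

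The large MAF gene went the other way. MAF was at 36.0, 32.7 and 28.1 CPM in controls and 89.3, 84.3 and 81.5 CPM in knockdown libraries, and its log2 fold change was 1.40 with an SE of 0.0786 (edgeR, adjusted p = 9.44e-17). BATF3 (-0.14) was not called.

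Of 34 tested immediate early genes outside the 10, 21 fell (61.8%, against 21.6% of all genes tested) and 5 rose (14.7%, against 18.7%). Their median log2 fold change was -0.43. This list too was chosen with earlier results known. The largest fall among those named by rule was that of DUSP1, a phosphatase that switches off MAP kinases, at 59.4, 55.7 and 57.3 CPM in controls and 24.0, 24.0 and 24.2 CPM in knockdown libraries (-1.26, SE 0.0817, adjusted p = 5.62e-15, edgeR). PPP1R15A, a stress-induced phosphatase subunit, had a log2 fold change of -0.94, PHLDA1 -0.88, the small GTPase gene RHOB -0.80, MYC -0.72 and the survival gene MCL1 -0.53. DUSP5, an ERK-specific phosphatase, was at 108 ± 5.76 and 106 ± 3.11 CPM (SD, n = 3 each), and the mRNA-destabilising gene ZFP36 at 14.2 ± 1.1 and 13.8 ± 0.667 CPM, and neither was called. The 5 that rose, named after their values were seen, were SGK1 (0.59), NFKBIZ (0.49), BTG1 (0.48), NR4A2 (0.43) and CSRNP1 (0.35). Without knockdown replicate 2 only 3 genes of this list rose. MAFF belongs to both this list and the list of partners.

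The kinases and factors that act on these genes did not move in 1 direction. Of 30 tested, 7 rose and 7 fell (23.3% each), near the 18.7% higher and 21.6% lower of all genes tested. Their median log2 fold change was 0.03, against 0.02 over all genes tested. Only 3 fell without control replicate 1, and 4 without control replicate 3, knockdown replicate 1 or knockdown replicate 3. The ERK1 gene MAPK3 (0.05) and the JNK genes MAPK8 (0.12) and MAPK9 (0.09) had log2 fold changes near 0 and were not called. MAP2K3, which activates p38 kinases, had the largest fall at -0.67, from 27.3 ± 2.05 to 17.1 ± 1.33 CPM (SD, n = 3 each). MKL2, a coactivator of serum response factor, rose by 0.45, BRAF by 0.35, MAPK14 by 0.28 and RPS6KA3, an ERK-activated kinase at a mean of 2232 CPM, by 0.15.

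Regulators of EGR1 were measured in the same list, which was not drawn up for EGR1 alone. SRF, which binds CArG boxes, was at 40.3, 41.9 and 39.9 CPM in controls and 37.7, 39.0 and 29.8 CPM in knockdown libraries and was not called (-0.20, adjusted p = 0.0774, edgeR). It passed without knockdown replicate 1 (adjusted p = 0.0467) or 2 (0.0386), both edgeR. Its partner genes ELK1 (-0.35) and ELK3 (-0.36) fell, the latter with overlapping groups, and of the 6 fits that leave out a library it passed only in those without control or knockdown replicate 2. ELK4, another partner gene named after its value was seen, was called higher (0.19, adjusted p = 0.0299, edgeR). ELK4 did not pass without control replicate 1 (adjusted p = 0.137, edgeR), control replicate 2 (0.0743) or knockdown replicate 1 (0.156), without a count filter (0.078) or with length and GC offsets (0.344). NAB1, an EGR1 corepressor, rose by 0.36, and NAB2 was not called (-0.22).

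Among 20 tested genes known as AP-1 targets, 13 fell (65.0%, against 21.6% of all genes tested) and 2 rose (10.0%, against 18.7%). Their median log2 fold change was -0.49. Of all protein-coding genes tested, 26.2% were called lower. As the list was chosen with earlier results of these data known, its shares are no test of AP-1 targets. CXCL8 (-2.51), FTH1 (-1.53), the Wnt inhibitor gene DKK1 (-1.13), the cyclin D1 gene CCND1 (-0.88) and the keratin gene KRT18 (-0.74) were among those that fell. FTH1 and KRT18 have processed pseudogenes that may share their reads, so their values are uncertain. CD44 (0.09) and the tissue factor gene F3 (-0.07) were not called. VEGFA (0.16), named after its value was seen, was called higher. Of the 6 fits that leave out a library, VEGFA passed only in those without control replicate 2 or knockdown replicate 1. All of these targets have other known regulators, and the part of AP-1 in their levels was not tested.

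**Figure D5:**
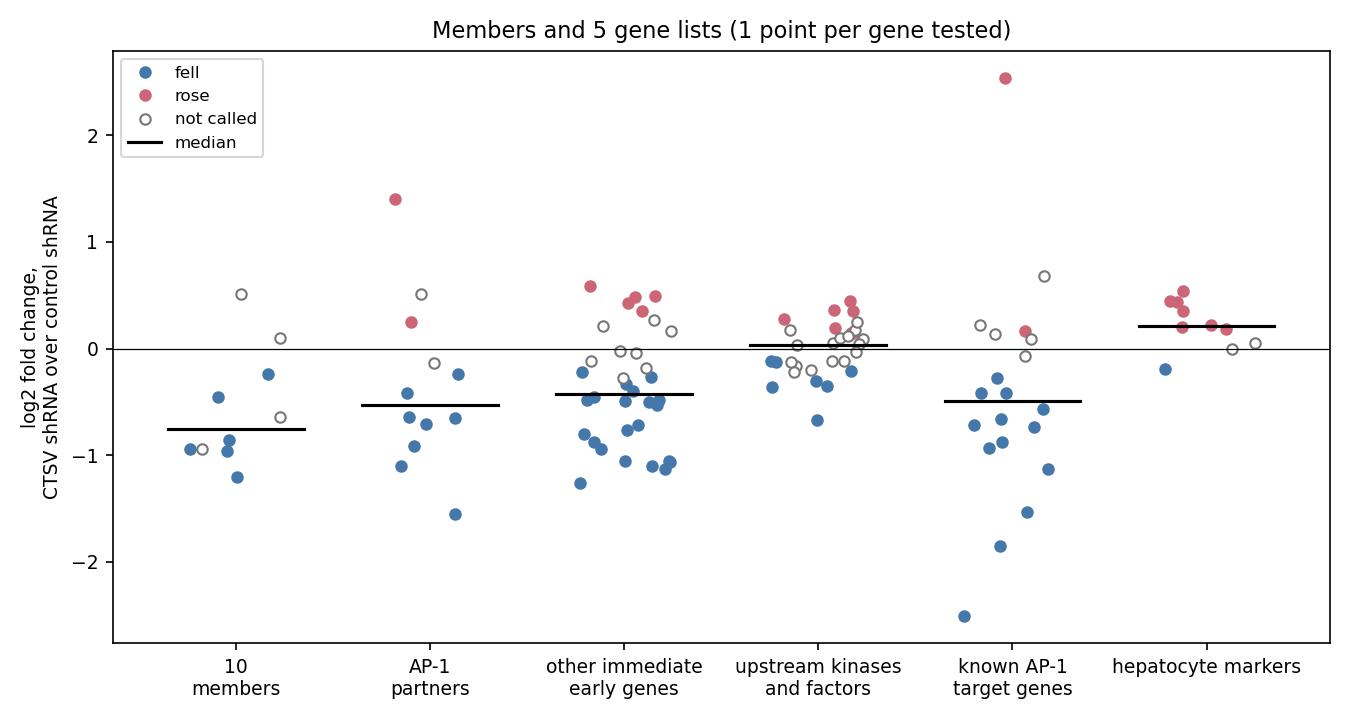
Log2 fold change, CTSV shRNA over control shRNA (vertical axis), of the members and of 5 gene lists, with 1 point per gene tested and a line at each median; filled points passed the edgeR test. Medians are -0.75 for the members, -0.53 for AP-1 partners and 0.03 for upstream kinases and factors.

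For JUN, JUND and FOSL2, the 3 of the 10 with the highest mean CPM before any scaling by length, the genes nearest in pattern were found by the root mean square difference of log2 CPM, centred on each gene's mean over the 6 libraries, among 9439 other genes with a mean of 10 CPM or more. Nearest to JUN were B3GALNT1 (0.0287), CDCA4 (0.0335) and THOC3 (0.0352). Nearest to JUND were ABRAXAS1 (0.0349), MRPL18 (0.0359) and TMEM14B (0.0365), and nearest to FOSL2 were TIMM23B (0.022), N4BP1 (0.0423) and APBB1 (0.0543). Each difference is over 6 libraries in 2 groups.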

How the data were processed

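RNA was extracted with TRIzol and libraries made with an NEBNext Ultra II mRNA kit, per the labels' protocols. The authors deposited raw read counts per gene for 6 libraries, with their own log2 fold changes (control over knockdown, as the values show) and p-values. HISAT2, StringTie and SAMtools were used with hg38, per the submitters' processing notes. The counting tool, strand setting and testing tool were not stated in the labels or notes. The table has 28915 entries under 27394 names, and copies of a name, identical in their counts, were reduced to 1 entry.

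The deposited counts were tested with edgeR 4.0.16 in R 4.3.3, by its quasi-likelihood test with TMM, the filterByExpr filter by group and Benjamini-Hochberg adjustment over all genes tested, with calls at 0.05. The SE is the log2 fold change divided by the square root of F. The biological coefficient of variation was 6.87%. The fit was tested on simulated data.

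Exon lengths, GC content (longest transcript) and overlaps came from GENCODE v29, which matched 99.61% of names and gave the 10 genes the table's own start and end. Alternatives were RLE size factors, no filter, a mean CPM of at least 1, DESeq2 1.42.0, the replicate number as a block, each library left out, and, added after seeing the data, loess offsets (span 0.5) for length and GC content. Members and lists were chosen with earlier results of these data known. The rule for named genes took all 10, their overlapping genes, fixed partners and regulators, and of each list the 6 called genes of smallest p and the 2 most abundant not called. Some genes that the rule takes are not reported here.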

Additional observations from a re-analysis of the deposited data

How the results depend on the processing

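Precision is limited most for FOSL1 and FOSB, the genes with the fewest reads. Leaving out 1 library in turn gave 5 to 7 falls and 0 to 1 rises among the 10 genes. It gave 1 to 2 rises among AP-1 partners, 3 to 5 among other immediate early genes, 1 to 3 among AP-1 targets, 3 to 8 falls among upstream kinases and factors, and 0 to 1 falls among hepatocyte markers. With length and GC offsets 1 of the 10 rose (EGR1), and 1 partner and 1 AP-1 target rose. Only 1 partner rose without a count filter and with DESeq2, and 1 AP-1 target rose without a count filter and with genes kept from a mean of 1 CPM, where fewer genes are tested. The cause of the other shifts was not tested. Counts over all genes stayed within 1.5 times under each alternative.

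Some genes near 0 that were not called changed sign. Leaving out 1 library gave log2 fold changes from -0.06 to 0.02 for DUSP5, -0.10 to 0.02 for ZFP36, -0.25 to 0.01 for F3, -0.32 to 0.01 for BATF3 and -0.04 to 0.11 for MAPK3. With length and GC offsets DUSP5 was at 0.08 and ZFP36 at 0.09. Same-numbered libraries of the 2 groups did not deviate together over all genes tested (correlations -0.012, -0.003 and 0.021). A batch that they share in only some genes could go unseen in these values. With the replicate number as a block, 6 of the 10 genes fell and 0 rose, and 3490 of all genes fell and 2996 rose.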
